A study of Mus musculus with 16 samples.

Results

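The 7 cytokine genes Ifng, Tnf, Lta, Il2, Csf2, Il10 and Il21 were followed through the peak lists of chromatin immunoprecipitation with sequencing (ChIP-seq) on mouse CD8+ T cells, as 7 of 26180 curated RefSeq genes. A peak belonged to a gene when it overlapped the gene body extended by 60 kb on each side. Tnf and Lta, whose transcription start sites (TSSs) are close neighbours, were taken as a single locus, which gave 6 loci. Within a locus, a peak that overlapped the 1 kb on either side of a TSS was a promoter peak, and a peak that met no promoter of any gene was counted as lying away from promoters. All CD8+ T cells came from the spleens of OT1 mice, whose T cells express a transgenic receptor that recognises an ovalbumin peptide. The cells were activated for 48 h by antibodies to CD3 and CD28 with IL-2 and then kept for 3 days in IL-2, so Veh and GSK cells shared the OT1 receptor, the stimulus and the cytokine. GSK cells received 0.5 μM GSK2879552, which irreversibly inhibits the histone demethylase LSD1, during activation and expansion, and Veh cells received the vehicle. The labels give neither the age nor the number of the mice, and they name no new stimulation before fixation. The receptor was engaged by antibodies and not by its peptide.

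Each treatment had 1 library for each of 6 antibodies, raised to LSD1, to RNA polymerase II (Pol II) and to the histone marks H3K27ac, H3K4me1, H3K4me2 and H3K4me3. Each library gave 1 peak list, so 12 lists were read, while the 4 input samples were not analysed here. With 1 library per antibody and treatment there is no replicate check, no test was run, and the Wilson 95% intervals below cover counting error only. The lists held between 2751 peaks (GSK H3K27ac) and 40272 peaks (GSK H3K4me1). Their read depth is not recorded in the lists. Per the study's reporting summary, the Veh LSD1, Veh H3K4me2 and Veh H3K27ac libraries held more unique read pairs than their GSK counterparts. The GSK H3K4me1, GSK H3K4me3 and GSK Pol II libraries held more than their Veh counterparts. The gaps were smallest for LSD1 and H3K4me3 and by far the largest for H3K27ac. How far depth moved the counts below was not tested. As a check of the labelled cell type, all 7 CD8 T cell markers found in the annotation had an H3K4me3 promoter peak in both treatments (Cd8a, Cd8b1, Cd3e, Cd3d, Cd3g, Cd2 and Lck). The same held for 1 of 3 CD4 T cell markers (Zbtb7b), 1 of 5 myeloid markers (Cd14) and 0 of 2 NK cell markers. Cd4, Foxp3 and Ncr1 had no H3K4me3 promoter peak in either treatment. Of the B cell genes Cd79b had such a peak in both treatments, and Cd79a, Ms4a1 and Pax5 had it in neither. H3K27ac promoter peaks were fewer, at 4 of the 7 CD8 T cell markers with Veh and 1 with GSK. Pol II peaks stood at 3 and 5 of the 7, and Cd8a had neither in either treatment. No CD4 T cell, myeloid or NK cell marker, and none of the B cell genes named here, had an H3K27ac or Pol II promoter peak.

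LSD1 removes methyl groups from mono- and dimethylated lysine 4 of histone H3, usually within complexes that also carry histone deacetylases. H3K4me1 and H3K4me2 mark enhancers as well as promoter flanks, H3K4me3 marks active or poised promoters, and H3K27ac marks active promoters and enhancers. Effector cytokine genes in T cells are transcribed in short bursts after receptor engagement, through NFAT, AP-1 and NF-kB factors that act at promoters and at distant enhancers, and in CD8 T cells T-bet, Eomes and Runx3 shape Ifng in particular.

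The promoters that carried peaks and the stretches under 7 LSD1 summits are shown because the comparisons below turn on them. Promoters are the 250 bases before the TSS from RefSeq (GRCm38.p6, the mm10 assembly), read along the gene. Of the 7 genes, 6 matched the promoter table. Capitals mark matches on either strand to any of 7 short motifs, namely T-box (TCACACCT), RUNX (TGTGGT), AP-1 (TGANTCA), NFAT (TGGAAA), NF-kB (GGGA, any base, TTTCC), ETS (ACAGGAAG) and GFI1 (AAATCA). A match describes the letters and shows no binding.
Ifng promoter, chr10:118440796-118441045, plus strand: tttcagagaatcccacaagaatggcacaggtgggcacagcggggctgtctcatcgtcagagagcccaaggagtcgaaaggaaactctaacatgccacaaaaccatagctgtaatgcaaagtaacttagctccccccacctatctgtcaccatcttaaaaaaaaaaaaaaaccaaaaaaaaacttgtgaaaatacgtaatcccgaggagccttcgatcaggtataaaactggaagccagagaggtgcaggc
Tnf promoter, chr17:35202008-35202257, minus strand: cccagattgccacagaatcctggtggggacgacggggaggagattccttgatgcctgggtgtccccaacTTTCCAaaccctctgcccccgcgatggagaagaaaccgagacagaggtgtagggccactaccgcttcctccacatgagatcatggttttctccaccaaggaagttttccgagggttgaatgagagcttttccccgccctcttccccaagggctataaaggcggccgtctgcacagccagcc
Lta promoter, chr17:35205352-35205601, minus strand: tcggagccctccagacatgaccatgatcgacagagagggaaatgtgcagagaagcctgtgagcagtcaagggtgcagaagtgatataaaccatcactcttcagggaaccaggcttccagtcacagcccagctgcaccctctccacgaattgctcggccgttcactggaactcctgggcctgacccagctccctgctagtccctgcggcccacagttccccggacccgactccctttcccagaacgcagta
Csf2 promoter, chr11:54249900-54250149, minus strand: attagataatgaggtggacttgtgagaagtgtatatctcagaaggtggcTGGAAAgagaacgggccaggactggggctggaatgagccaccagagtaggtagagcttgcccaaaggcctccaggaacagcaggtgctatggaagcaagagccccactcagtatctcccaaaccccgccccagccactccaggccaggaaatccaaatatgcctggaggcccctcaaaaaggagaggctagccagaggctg

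NFAT letters stood in the Tnf promoter at positions −181 to −176 from the TSS and in the Csf2 promoter at −201 to −196. They also stood in the promoters of Il2 (−47 to −42) and Il21 (−119 to −114 and −74 to −69), which carried no peak. Of all 32851 promoters of this length 18.6% held them. None of the 7 motifs matched in the Ifng or Lta stretch, where LSD1 summits were found. The LSD1 windows below span 75 bases on each side of a summit, on the plus strand of GRCm38.p6. They show the sites with the highest LSD1 fold at Il2, Ifng and Il10, a GSK-only site near Ifng, and 2 sites beside Lta.
Il2 −47.5 kb, Veh only, chr3:37173366-37173516: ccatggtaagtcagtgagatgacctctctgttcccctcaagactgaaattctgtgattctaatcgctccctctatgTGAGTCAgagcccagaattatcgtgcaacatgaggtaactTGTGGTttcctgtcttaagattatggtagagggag
Ifng −21.9 kb, Veh summit, chr10:118419097-118419247: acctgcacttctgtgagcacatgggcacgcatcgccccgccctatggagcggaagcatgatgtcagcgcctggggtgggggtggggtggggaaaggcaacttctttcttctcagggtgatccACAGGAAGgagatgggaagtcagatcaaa
Ifng +29.8 kb, GSK only, chr10:118470745-118470895: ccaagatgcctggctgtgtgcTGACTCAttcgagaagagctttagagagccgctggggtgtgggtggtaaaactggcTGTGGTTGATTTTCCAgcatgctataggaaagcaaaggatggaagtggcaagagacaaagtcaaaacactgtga
Il10 +6.27 kb, Veh summit, chr1:131026042-131026192: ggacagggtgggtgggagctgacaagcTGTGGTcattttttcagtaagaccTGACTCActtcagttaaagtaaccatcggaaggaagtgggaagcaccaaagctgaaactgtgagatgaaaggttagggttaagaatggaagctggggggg
Il10 +29.6 kb, Veh summit, chr1:131049365-131049515: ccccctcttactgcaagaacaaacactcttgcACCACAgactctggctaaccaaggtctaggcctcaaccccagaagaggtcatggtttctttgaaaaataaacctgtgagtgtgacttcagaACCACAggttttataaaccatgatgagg
Lta −4.99 kb, Veh summit, chr17:35210267-35210417: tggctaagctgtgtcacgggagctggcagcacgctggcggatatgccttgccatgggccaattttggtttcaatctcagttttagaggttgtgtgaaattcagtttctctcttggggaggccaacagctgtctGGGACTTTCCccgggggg
Lta −14.5 kb, Veh summit, chr17:35219753-35219903: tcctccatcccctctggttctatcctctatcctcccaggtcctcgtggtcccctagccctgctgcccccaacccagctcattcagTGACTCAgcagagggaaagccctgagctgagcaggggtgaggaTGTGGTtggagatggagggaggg

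RUNX letters were the most frequent match in these loci. They stood in 13 of the 29 Veh LSD1 windows outside the members' own promoters (44.8%, 28.4 to 62.5), against 18.5% of all 21252 Veh LSD1 windows. AP-1 letters stood in 5 of the 29 (17.2%, 7.60 to 34.5, against 7.21%), and the AP-1 match under the Il2 −47.5 kb summit began 1 base after it. The NF-kB letters occurred in 1 of the 29 windows, at Lta −4.99 kb, and in 0.151% of all windows. ETS letters stood in 4 (against 4.16% of all windows), NFAT letters in 4 (8.83%), GFI1 letters in 6 (6.46%) and T-box letters in 0 of the 29 (1.04%). These shares carry no test, and the 29 windows include neighbouring sites of the same locus. The sets also differ, since the 29 leave out the members' promoters, whereas 12563 of the 21252 peaks lay away from promoters. No background of windows away from promoters alone was computed.

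Across the promoters, Ifng, Tnf, Lta and Csf2 carried peaks, and Il2, Il10 and Il21 carried none in any of the 12 lists. These last 3 were among 10697 of the 26180 genes with no promoter peak in any list. Over the 7 genes and 6 antibodies, 12 gene and antibody pairs had a promoter peak in Veh and 9 in GSK cells. The cells were profiled in bulk, so a mark held by fewer cells and a weaker mark in every cell cannot be told apart. The 3 pairs found in Veh cells only were LSD1 at Csf2, H3K4me3 at Lta and H3K27ac at Tnf, and no pair was found in GSK cells only. Over all 26180 genes such pairs numbered 53796 with Veh and 50052 with GSK, with a median of 2 antibodies per promoter in both treatments. The members' median was 2 with Veh and 1 with GSK.

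**Figure D1:**
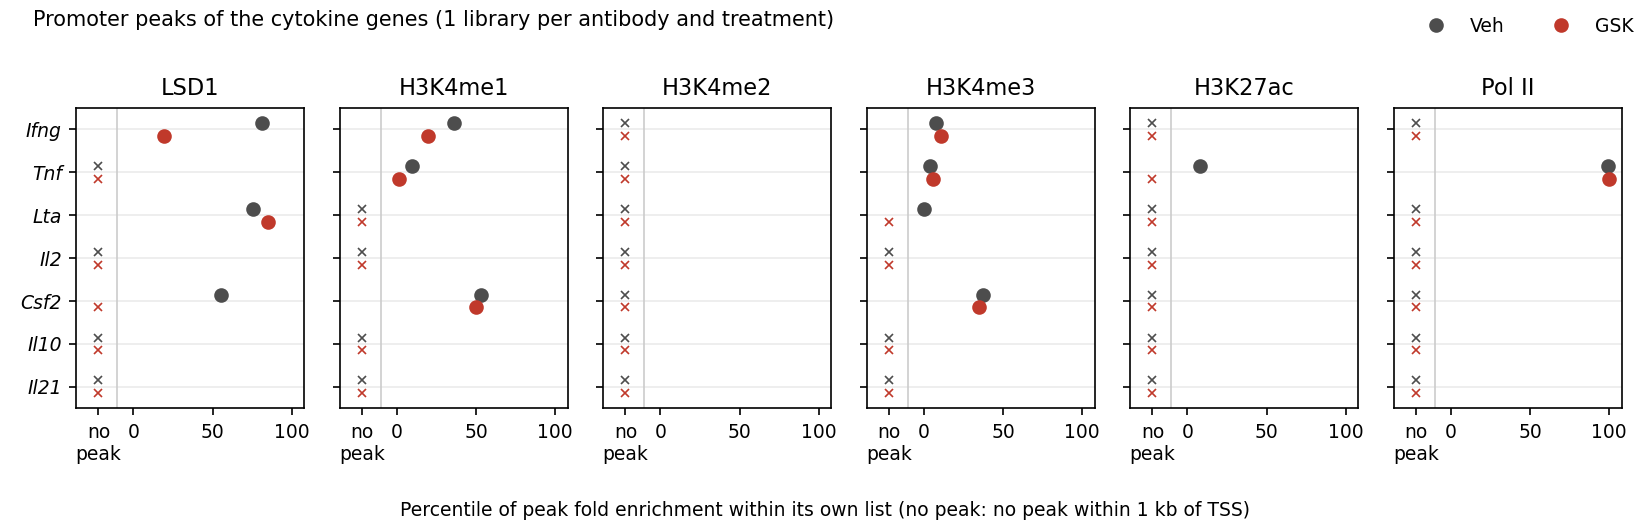
Promoter peaks of the 7 cytokine genes, with 1 panel per antibody. The x axis gives the percentile of a peak's fold enrichment within its own list, each dot is the highest promoter peak of a gene in 1 library (grey Veh, red GSK) and a cross marks no peak. Pol II at Tnf sits at the 99.3 and 99.7 percentiles, and the Ifng LSD1 dot lies at 81.0 in Veh cells and at 19.1 in GSK cells.

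Ifng encodes interferon-gamma, the main macrophage-activating cytokine of CD8 T cells (chromosome 10, TSS at 118441046, plus strand). Its LSD1 promoter peak had its summit at −154 bp from the TSS with Veh and at −185 bp with GSK. Fold enrichment compares the ChIP pileup of a peak with the background around it. It was 5.54 with Veh and 3.60 with GSK, and −log10 p was 10.0 and 4.76. Both values were lower in GSK cells, and the percentile of fold within the list was 81.0 with Veh and 19.1 with GSK. The H3K4me3 peak over the TSS had a fold of 3.71 with Veh and 3.93 with GSK, at the 7.91 and 11.1 percentiles. It thus ranked among the weaker H3K4me3 peaks of both lists, which also hold peaks away from promoters. H3K4me1 lay just inside the gene, with a fold of 3.66 over 335 bp in Veh cells and 3.01 over 1380 bp in GSK cells. No H3K4me2, H3K27ac or Pol II peak met the Ifng promoter.

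Tnf encodes tumour necrosis factor (chromosome 17, TSS at 35202007, minus strand), and it was the only member with a Pol II promoter peak, which 29.3% of all genes had in the Veh list and 24.9% in the GSK list. That peak had a fold of 14.3 with Veh and 14.0 with GSK, with −log10 p of 112 and 110 and a summit 51 and 36 bp after the TSS. The H3K4me3 region began at the TSS and ran downstream for 2019 bp with Veh and 2047 bp with GSK, with folds of 3.31 and 3.46. Ranked by fold these were low regions, at the 4.04 and 5.51 percentiles, whereas their −log10 p values of 70.5 and 71.6 stood at the 60.5 and 62.9 percentiles. H3K4me1 lay upstream, centred at −811 and −772 bp from the TSS, with folds of 2.74 and 2.13, and the GSK region was not in the GSK list once that was shortened to the length of the Veh list. H3K27ac at Tnf was found in Veh cells only, with a fold of 3.04 and −log10 p of 9.11, and it was no longer in the Veh list once that list was shortened to the length of the GSK list.

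Lta encodes lymphotoxin-alpha (chromosome 17, TSS at 35205351, minus strand), and its promoter held LSD1 in both treatments without H3K4me1 or Pol II. The LSD1 fold was 5.19 with Veh and 6.22 with GSK, at the 75.3 and 85.1 percentiles, with summits at −39 and +21 bp from the TSS. A 238 bp H3K4me3 region centred 961 bp after the TSS was found in Veh cells only, with a fold of 1.98 at the 0.216 percentile, so it was among the weakest of the Veh list. The microRNA gene Mir6974 overlaps Lta, and this region reaches into the 1 kb promoter window of both genes. A Veh H3K4me2 region centred at +1.22 kb lay just outside the Lta window and inside that of Mir6974, so no member promoter held H3K4me2, against 39% of all genes in the Veh list and 28.2% in the GSK list.

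Csf2 encodes granulocyte-macrophage colony-stimulating factor (chromosome 11, TSS at 54249899, minus strand). Its H3K4me3 fold was 5.12 with Veh and 5.04 with GSK, at the 37.2 and 34.6 percentiles, the highest ranks by fold for this mark among the members, whereas by −log10 p Csf2 stood at 23.3 and 17.4, below Tnf. Its H3K4me1 fold was 4.08 with Veh and 3.84 with GSK, over 611 and 2157 bp. An LSD1 peak 290 bp after the TSS had a fold of 4.37 and −log10 p of 7.90 in Veh cells, and the nearest GSK LSD1 peak lay 34419 bp away. Il2 (chromosome 3, TSS at 37125954, minus strand), the T cell growth factor, Il21 (chromosome 3, TSS at 37232636, minus strand), a helper cytokine for B and T cells, and Il10 (chromosome 1, TSS at 131019845, plus strand), an anti-inflammatory cytokine, had no promoter peak to compare.

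These promoter differences were read against all genes with a promoter peak. Of genes with a Veh LSD1 promoter peak, 12.2% had no GSK peak, and of genes with a GSK peak 23.4% had no Veh peak. For H3K4me1 these shares were 11.3% and 26.8%, for H3K4me3 0.665% and 2.88%, and for Pol II 25% and 11.8%. For H3K27ac 59.8% of genes with a Veh promoter peak had no GSK peak, so the Veh-only mark at Tnf was the more common outcome genome-wide. A Veh-only H3K4me3 promoter such as that of Lta was uncommon among all genes, although the Lta region was at the low end of its list. For scale, 36.3% of all genes had an LSD1 promoter peak in the Veh list and 41.6% in the GSK list, against 3 and 2 of the 7 members, and for H3K4me3 the shares were 50% and 51.1%, against 4 and 3 members. H3K4me1 stood at 30.3% and 36.8% of all promoters, against 3 members in each list, and H3K27ac at 20.5% and 8.58%, against 1 and 0 members.

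In the 6 loci together the lists held 134 peaks in Veh and 111 in GSK cells. LSD1 gave 32 and 23 peaks, a GSK to Veh ratio of 0.719 (0.423 to 1.22), against 0.937 for the whole lists. H3K4me2 gave 12 and 4, a ratio of 0.333 (0.113 to 0.980), against 0.62 for the whole lists, and H3K27ac gave 11 and 4, a ratio of 0.364 (0.122 to 1.08), against 0.371. The intervals of all 3 ratios held the whole-list ratio. With lists of equal length the H3K27ac ratio became 1 and the H3K4me2 ratio 0.667, and with a −log10 threshold of 5 they became 0.125 and 0.4. H3K4me1 (50 and 53), H3K4me3 (19 and 17) and Pol II (10 and 10) differed little in number. The Tnf-Lta locus held 60 Veh and 51 GSK peaks in a window with 15 genes, whereas the Il2 locus held 4 and 2. Set among the windows of all genes built in the same way, the 10 Veh LSD1 peaks around Tnf and Lta exceeded 99.2% of genes, the 8 around Il10 96.5% and the 7 around Ifng 93.3%. In GSK cells the 11, 3 and 4 peaks of these loci exceeded 99.6%, 53.5% and 67.5% of genes.

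Away from promoters, LSD1 gave 27 Veh and 14 GSK peaks, and 13 of the 27 Veh peaks met a GSK peak (48.1%, 30.7 to 66). Genome-wide 65.1% of the 12563 Veh LSD1 peaks away from promoters met no GSK peak, so the 14 of 27 in these loci were no larger a share than that background. In the other direction 12 of 14 GSK peaks met a Veh peak (85.7%, 60.1 to 96), where genome-wide 56.3% of GSK peaks met none. The interval of this share lies above the genome-wide share of matched peaks, but the 14 peaks come from a single library and from few loci. LSD1 sites shared by the treatments ranked higher, with a median fold percentile of 84.3 for the 13 shared Veh peaks and 49.6 for the 14 Veh-only peaks. The whole list had the same order, since 80.6% of Veh peaks in the lower 50% by fold, 53.8% of those between 50% and 90% and 21.9% of those in the upper 10% met no GSK peak. In the loci 7 of 12, 6 of 9 and 1 of 6 peaks of these classes met no GSK peak, and the last of these was the site at Il2 −47.5 kb.

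**Figure D2:**
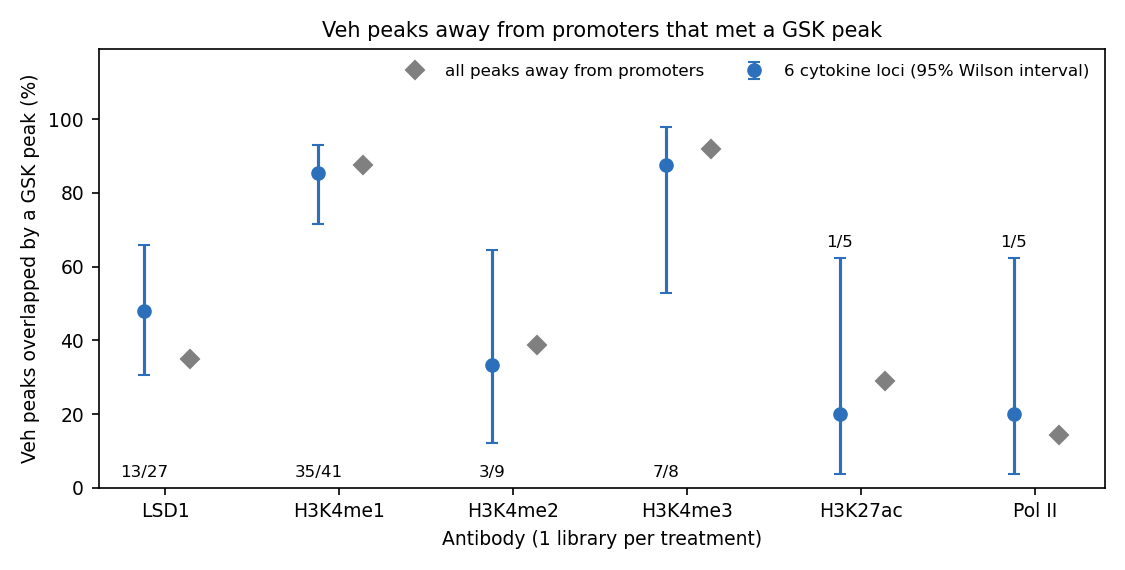
Percent of Veh peaks away from promoters that a GSK peak of the same antibody overlapped by at least 1 bp. Blue dots are the 6 cytokine loci with Wilson 95% intervals and the counts beside them, grey diamonds all such peaks of the list. The diamond lies inside the interval for each of the 6 antibodies.

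H3K4me1 and H3K4me3 were largely shared away from promoters. For H3K4me1, 35 of 41 Veh peaks and 38 of 44 GSK peaks were met by the other treatment, while 12.3% and 24.1% of all such peaks met none. For H3K4me3, 1 of 8 Veh and 0 of 7 GSK peaks were unmatched, against 8.02% and 22.3%. For H3K4me2, 6 of 9 Veh and 0 of 3 GSK peaks were unmatched, against 61.2% and 18.3%. For H3K27ac, 4 of 5 Veh and 0 of 1 GSK peaks were unmatched, against 70.9% and 4.96%. For Pol II, 4 of 5 Veh and 3 of 4 GSK peaks were unmatched, against 85.7% and 87.1%. In each of these the counts were too few to set the loci apart from the lists.

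Around Ifng, LSD1 marked 6 sites away from the promoter in Veh and 3 in GSK cells. The strongest lay at −21.9 kb in intergenic DNA (Veh peak chr10:118418677-118419457), and its fold was 7.80 with Veh and 9.62 with GSK, at the 95.4 and 98.5 percentiles. Its rank was thus higher in GSK cells while that of the Ifng promoter was lower. An H3K4me1 region lay there in both treatments, and ETS letters stood within 75 bases of both summits. A second shared site lay 28.2 kb downstream of the TSS, where the fold was 3.90 with Veh and 4.28 with GSK. In Veh cells this site also carried the only H3K27ac region of the locus, with a fold of 3.39 at the 19.2 percentile, which the shortened Veh list did not hold. Sites at −39.5 kb (fold 5.20), −33.9 kb (3.92), +39.9 kb (5.36) and +45.9 kb (5.90) were found in Veh cells only, and each lay at least 9910 bp from the nearest GSK peak. A site at +29.8 kb with a fold of 5.42 was found in GSK cells only, 1316 bp from the nearest Veh peak, and its window held RUNX, AP-1, NFAT and GFI1 letters, with the GFI1 and NFAT matches sharing 2 bases.

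The H3K4me1 regions around Ifng were largely shared. Of 11 Veh regions 9 met a GSK region, and the unmatched ones lay at −54.2 kb (fold 5.13, at the 89.0 percentile) and +30.2 kb (2.27). All 9 pairs were wider in GSK cells. At −34.4 kb the width was 636 bp with Veh and 1527 bp with GSK, and at +54.6 kb it was 886 and 1974 bp. The longest region, 18.9 kb downstream, measured 3242 and 3255 bp, a difference of 13 bp. Over the 6 loci, 28 of 42 single pairs were wider in GSK cells (66.7%, 51.6 to 79.0), and 63% of all 29440 such pairs were wider in GSK cells. The pairs at the other loci split 7 to 4 around Tnf and Lta, 2 to 0 at Il2, 4 to 3 at Csf2, 5 to 4 at Il10 and 2 to 3 at Il21, and Ifng was singled out after its values were seen. The GSK H3K4me1 library was the deeper of the pair, and whether peaks were called on equal read numbers is not stated. Treatment and depth therefore cannot be told apart here. H3K4me3 was found at −5.67 kb from Ifng in both treatments, with folds of 3.77 and 3.84. Pol II gave a single intergenic peak in each treatment, at −46.8 kb in Veh cells (fold 4.0, at the 52.8 percentile) and +16.7 kb in GSK cells (3.21, at the 35.3 percentile).

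**Figure D3:**
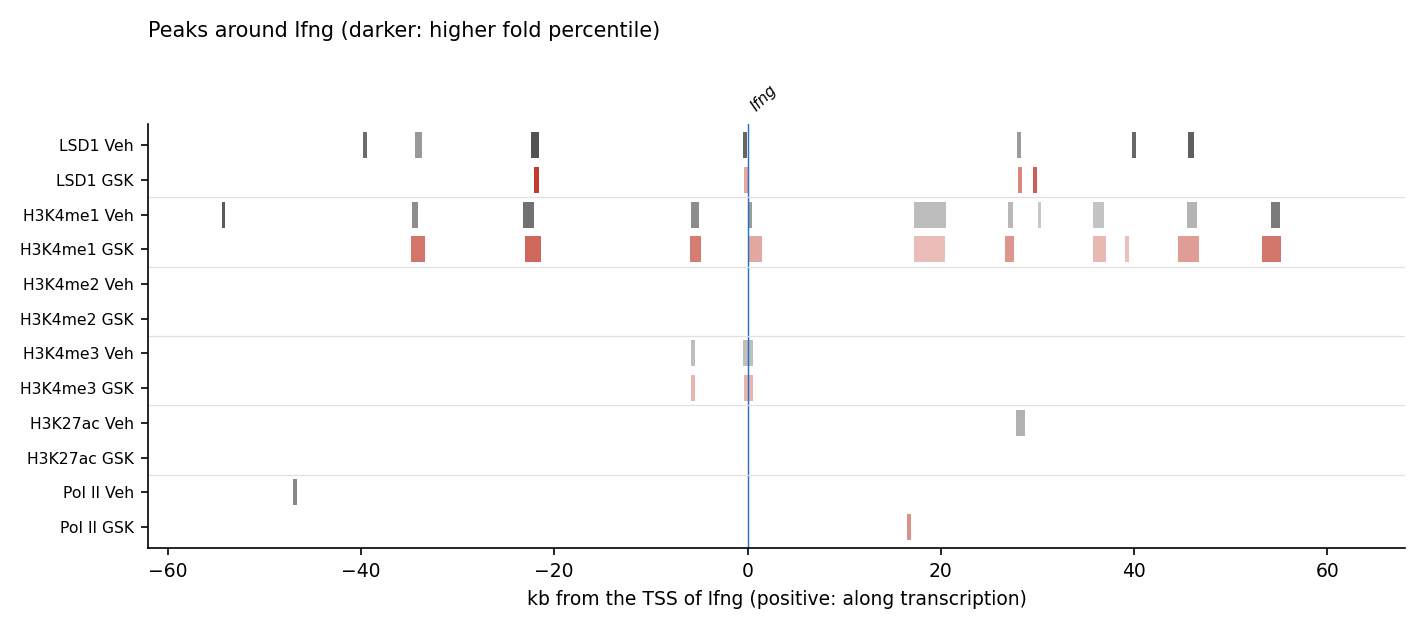
Peaks within the Ifng window by antibody and treatment, plotted by distance from the Ifng TSS in kb, with grey bars for Veh and red bars for GSK. Darker bars have a higher fold percentile, and peaks too short to see are widened. LSD1 bars at −21.9 kb and +28.2 kb stand in both rows, and 4 others stand in the Veh row only.

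Around Tnf and Lta, LSD1 marked a string of sites upstream of Lta that both treatments shared. At −4.99 kb from the Lta TSS the fold was 5.81 with Veh and 5.67 with GSK, at −13.4 kb 4.35 and 3.30, and at −14.5 kb 3.44 and 3.29. The highest Veh fold of the locus lay at −25.8 kb from Lta in an intron of Nfkbil1, which encodes a nuclear protein related to NF-kB inhibitors, and was 7.16 with Veh and 5.87 with GSK. At −53.1 kb the values were 6.23 and 6.22, and in the GSK list this site and the Lta promoter stood above the site in Nfkbil1. Of these 5 shared sites, 4 had a lower fold percentile in GSK cells by more than 5 points and the site at −53.1 kb went from 88.2 to 85.2. The Veh-only sites had folds of 2.76 in Nfkbil1 (−17.2 kb) and 4.37 in Lst1 (+15.9 kb from Tnf). H3K4me1 was mostly shared here, with 12 of 14 Veh regions met by GSK regions. A GSK-only H3K4me1 region of 1449 bp lay at +3.40 kb from the Tnf TSS, past the end of the gene, with a fold of 2.76.

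LSD1 peaks at promoters of neighbouring genes numbered 2 in the Veh list and 7 in the GSK list over the 6 loci, and 2 and 5 of them lay around Tnf and Lta. These counts depend partly on peak width. The GSK peak at the 4933405E24Rik promoter near Csf2 overlapped a narrower Veh peak that ended outside that promoter and was counted as intergenic. Aif1 had the peak in both treatments (fold 4.0 and 3.42). Prrc2a had a Veh peak of 3.51 and a GSK peak of 4.28 that missed each other by 40 bp. GSK-only peaks lay at the shared promoter of Atp6v1g2 and Nfkbil1 (2.73), at Ddx39b (3.92) and at the class I antigen gene H2-D1 (2.92), all at or below the 32.1 percentile of their list. Among all genes, 36.3% had an LSD1 promoter peak in the Veh list and 41.6% in the GSK list. Of genes with a GSK peak there, 23.4% had no Veh peak.

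H3K4me2 was the mark with the plainest difference around Tnf and Lta, with 8 Veh regions and 0 GSK regions. In the whole list 55.3% of Veh H3K4me2 regions met a GSK region, and the locus was singled out after its values were seen. The Veh folds ran from 2.86 (−13.9 kb from Lta) to 4.47 (Aif1), between the 0.854 and 41.9 percentiles, and the nearest GSK region outside the window lay at least 44731 bp away. By fold these were weak regions for their list, whereas by −log10 p they stood between the 15.0 (−13.9 kb from Lta) and 71.8 (Aif1) percentiles. Only 2 of the 8 were still there once the Veh list was shortened to the length of the GSK list, and the GSK library was the shallower of the pair. Elsewhere H3K4me2 was shared, at Csf2 +35.1 kb (5.26 and 4.26), at the Acsl6 promoter, −54.3 kb from Csf2 (7.38 and 6.81), at Il10 +60 kb (4.34 and 5.17) and at Il21 +28.1 kb (5.90 and 5.05).

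H3K27ac around Tnf and Lta gave 9 Veh and 4 GSK regions, and the GSK regions all met a Veh region, in Aif1 and at the promoters of Atp6v1g2 and Nfkbil1, Ddx39b and H2-D1. In the whole list 35.2% of Veh H3K27ac regions met a GSK region, and the GSK library was the shallower of the pair. The 5 Veh-only regions lay at Tnf, at Ltb, which encodes the membrane partner of lymphotoxin-alpha (fold 2.74), at Lta −4.71 kb (3.52), at Lta −14.2 kb (3.35) and at Prrc2a (4.66). The regions at Lta −4.71 and −14.2 kb overlapped LSD1 peaks in Veh cells, and those LSD1 peaks were still found in GSK cells. Of the 5, only the Prrc2a region remained in the shortened Veh list. H3K4me3 differed less, since 11 of 12 Veh regions met a GSK region, Ltb among them with folds of 3.57 and 3.44. Away from Tnf, Pol II was high at Prrc2a (11.2 and 6.87) and at H2-D1 (10.9 and 8.96).

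**Figure D4:**
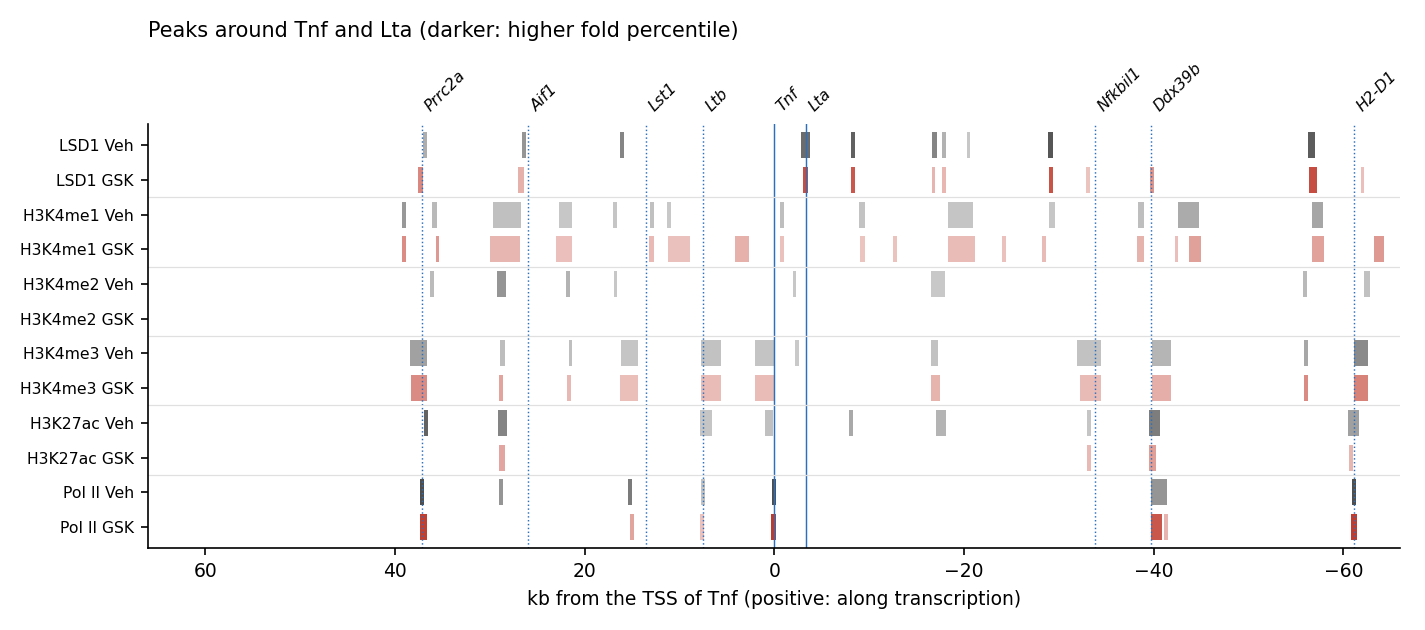
Peaks within the Tnf-Lta window, plotted by distance from the Tnf TSS in kb, with positive values along the direction of transcription. Grey bars are Veh peaks, red bars GSK peaks, darker bars have a higher fold percentile, and vertical lines mark start sites. The GSK H3K4me2 row is empty against 8 bars in the Veh row, whereas the Pol II bars at Tnf are dark in both rows.

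Il2 and Il21 lie 106.7 kb apart on the same strand, and their windows overlap by 23.2 kb. The strongest LSD1 site of this pair was found in Veh cells only (chr3:37173191-37173679), at −47.5 kb from Il2 and +59.2 kb from Il21, in intergenic DNA. Its fold was 10.2 with −log10 p of 27.5, which ranked at the 98.5 percentile, and the nearest GSK LSD1 peak lay 30420 bp away. An H3K4me1 region covered the site in both treatments, with folds of 4.01 and 3.64 over 2312 and 2354 bp. This is the site whose window holds AP-1 and RUNX letters. The rest of the Il2 window held an H3K4me1 region at −26.8 kb in both treatments (3.95 and 4.14) and a weak Veh Pol II peak (2.98).

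Downstream of Il21 H3K4me3 stood far from any annotated start site. At +28.3 kb it reached a fold of 9.60 with Veh and 9.15 with GSK, at the 95.2 and 93.1 percentiles, which were the highest H3K4me3 ranks by fold in the 6 loci. By −log10 p the region stood at the 43.1 and 45.7 percentiles, below Tnf and several neighbours of Tnf such as H2-D1 (97.5 and 97.1). H3K4me2 lay there in both treatments. A Pol II peak was found in Veh cells only (4.76) and an LSD1 peak in GSK cells only (5.39), and a Veh-only LSD1 peak of 3.79 lay 627 bp from the latter. The closest start sites to the Veh H3K4me3 region were those of Gm36168, 19774 bp away, and of the long noncoding RNA gene Gm12532, 21214 bp away.

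Il10 had no promoter peak but 8 LSD1 sites in Veh and 3 in GSK cells. All 3 GSK sites matched the 3 strongest Veh sites. At +29.6 kb the fold was 11.4 with Veh and 9.19 with GSK, at the 99.1 and 98.0 percentiles. At −9.23 kb it was 8.60 and 5.89, and at +6.27 kb, just past the end of the gene, 6.79 and 10.5, so the order of these sites differed between treatments. Each of the 3 sites lay under H3K4me1 in both treatments. The Veh-only sites ranged from a fold of 3.16 (+18.4 kb) to 6.44 (in Mapkapk2, +61.0 kb) and included a site inside an Il10 intron at +3.12 kb (4.29). The H3K4me1 list held 11 Veh and 12 GSK regions here, and no H3K27ac or Pol II peak met the window. An H3K4me3 region in Mapkapk2 at +60.5 kb was found in Veh cells only (4.40), on an H3K4me2 region that both treatments held.

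No LSD1 site of Csf2 reached the fold of the 3 shared Il10 sites in either list. Outside its promoter, sites at +35.2 kb (3.73 and 3.77), −38.0 kb (3.64 and 3.77) and −44.3 kb (2.87 and 3.65) were shared, a Veh-only site lay at −47.3 kb (3.29) and a GSK-only site at the Acsl6 promoter (2.97). At +35.1 kb, where the Veh H3K4me3 region began 1427 bp from the start site of the long noncoding RNA gene 4933405E24Rik, LSD1, H3K4me1, H3K4me2 and H3K4me3 stood together in both treatments. H3K27ac stood there in Veh cells only, with a fold of 4.88 at the 86.6 percentile, and this region remained in the shortened list. The GSK H3K27ac library was much the shallower of the pair. The highest-ranked H3K4me1 region of the locus lay at +9.67 kb in both treatments, with folds of 5.26 and 5.44. Il3, the neighbouring cytokine gene with its TSS at −17.4 kb from Csf2, had no promoter peak in any list.

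**Figure D5:**
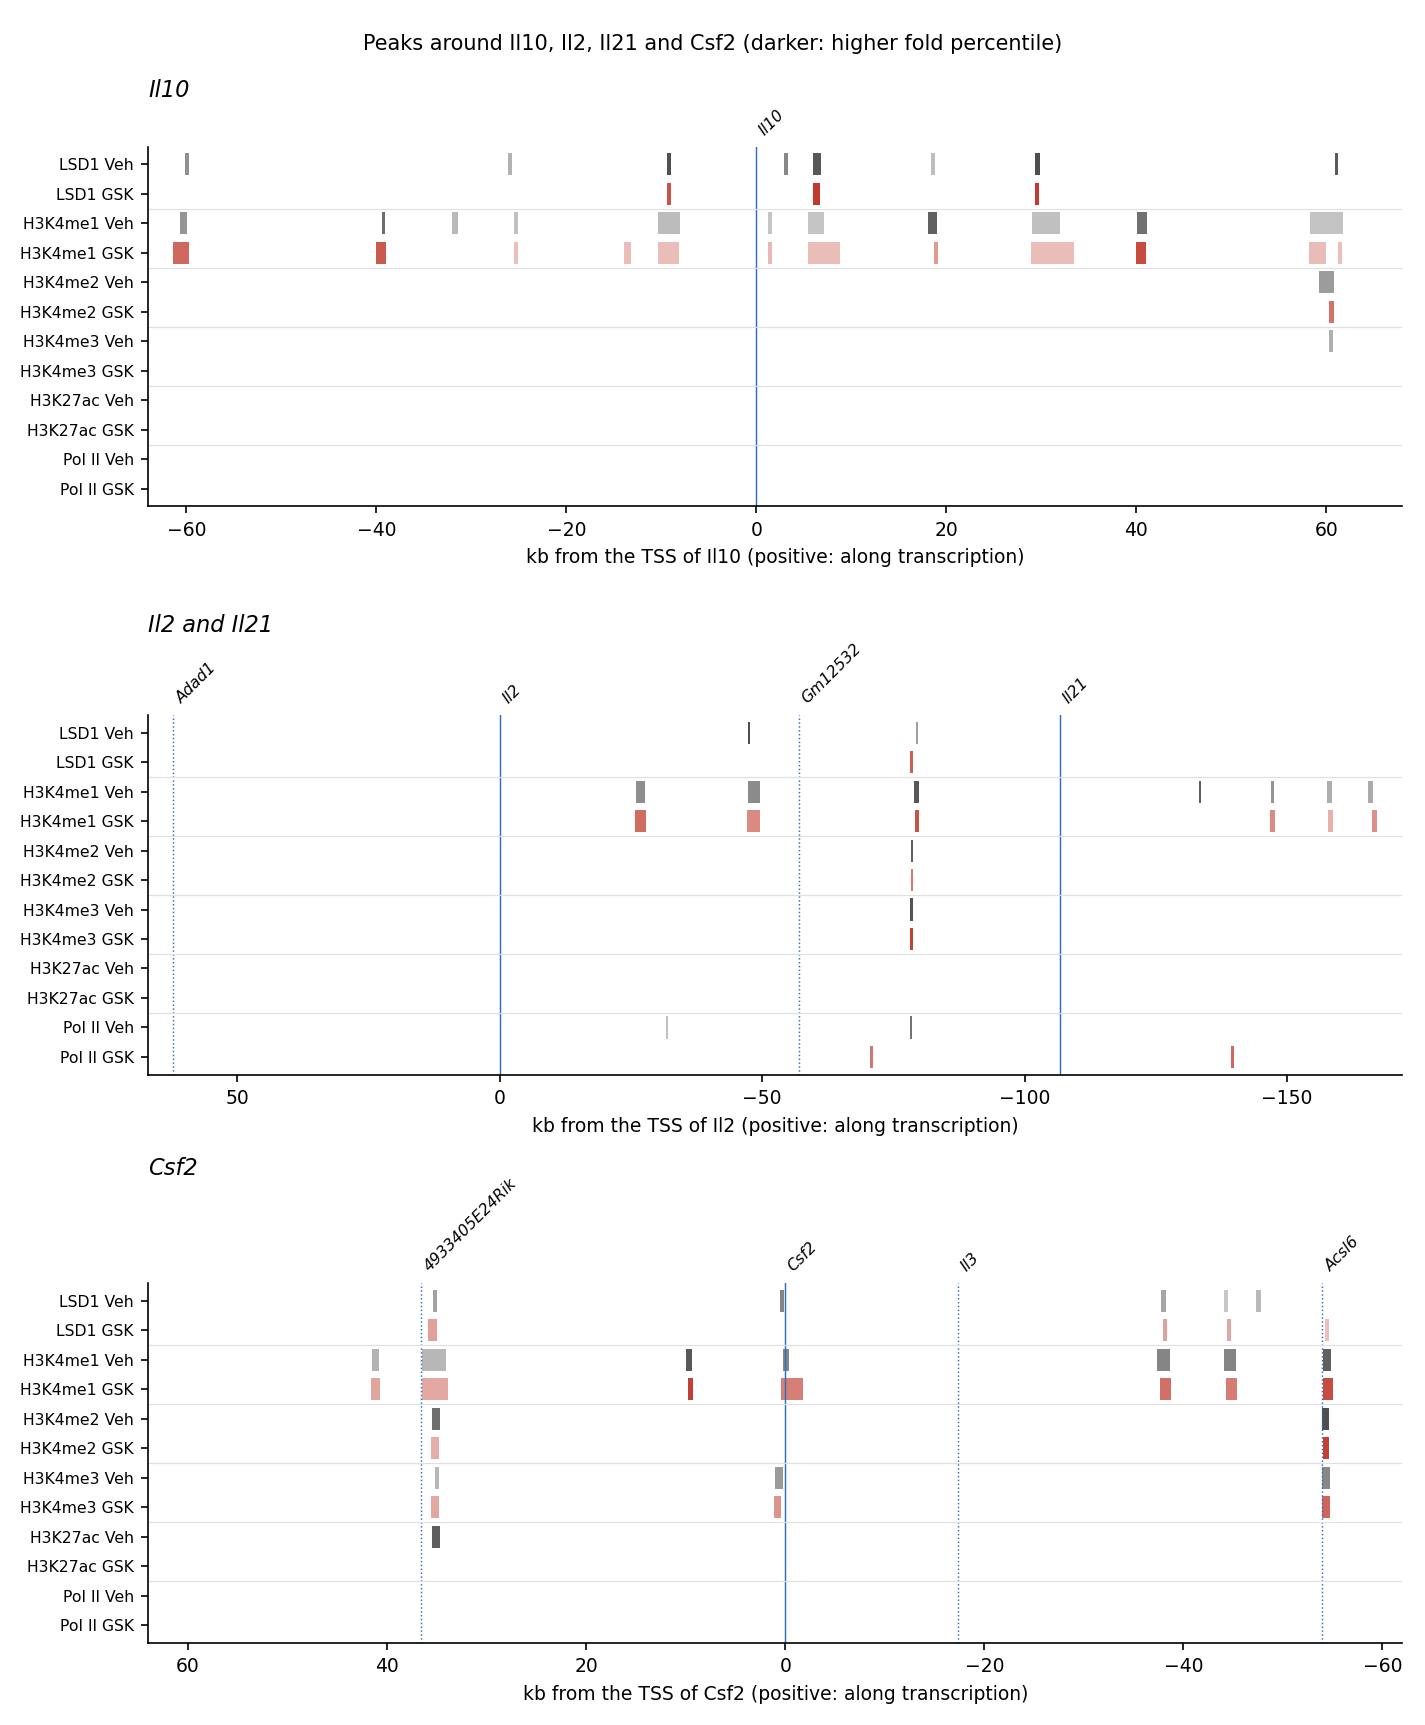
Peaks within the Il10 window, the joined Il2 and Il21 windows and the Csf2 window, by distance in kb from the TSS of Il10, Il2 or Csf2. Grey bars are Veh peaks, red bars GSK peaks and darker bars have a higher fold percentile. The 3 GSK LSD1 bars of Il10 each lie under a Veh bar, and the dark Veh LSD1 bar at Il2 −47.5 kb has no GSK counterpart.

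Where LSD1 stood away from promoters, H3K4me1 was the mark most often found with it. It overlapped 17 of 27 Veh LSD1 peaks in the loci (63%, 44.2 to 78.5), against 47.9% of all such peaks, and 7 of 14 GSK LSD1 peaks (50%, 26.8 to 73.2), against 48.2%. H3K27ac overlapped 5 of the 27 Veh peaks (18.5%, against 12.5%) and 0 of the 14 GSK peaks (against 4.18%). Pol II overlapped 0 of 27 and 0 of 14, where the lists as a whole gave 8.67% and 7.13%.

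Gene lists of the same biology ranged from well-marked to bare promoters. Among 22 regulators of these genes (such as Tbx21, Eomes, Nfatc1, Rela, Fos and Irf4), all 22 had H3K4me3 in both treatments, 20 had Pol II in Veh and 16 in GSK cells, and 15 and 18 had LSD1. Among 14 receptor genes, 11 had H3K4me3 in both treatments, 9 and 4 had Pol II, and 8 and 7 had LSD1. Il2rb, a signalling chain of the IL-2 receptor, kept Pol II in both treatments, whereas the Il2rg peak was found in Veh cells only. Among 10 cytokine genes that neighbour the members, Ltb alone had H3K4me3 or Pol II, and Il24 alone had LSD1, in Veh cells only. Among 11 cytotoxic genes, 3 had H3K4me3 in both treatments (Gzmb, Prf1 and Fasl), and the gene and antibody pairs with a promoter peak numbered 19 with Veh and 17 with GSK. Among 4 chemokine genes (Ccl3, Ccl4, Ccl5 and Xcl1) these pairs numbered 9 and 9, with H3K4me1 at all 4 genes in both treatments and Pol II at none.

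The genes with the most similar promoter pattern were found by the distance over the 12 fold percentiles, with a missing peak set to 0. For Tnf these were Zfp36l1, whose product destabilises cytokine mRNAs (distance 10.8 percentile units), the growth regulator Myc (12.2) and the transcription regulator Id2 (12.6). For Ifng they were Tnp2 (26.4), Il24 (26.9) and Klhl30 (27.2). For Csf2 they were Nrm (33.9), Rims2 (37.7) and Lsp1 (39.2), none of them close. The nearest to Lta was Mir6974 (1.71), which lies in the gene and shares its peaks, followed by Gja10 (10.0) and H4c2 (11.6). Looking only at presence in each of the 12 lists, 32 other genes had the pattern of Ifng, 27 that of Tnf, 11 that of Csf2 and 0 that of Lta.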

How the data were processed

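ChIP-seq peak lists of 12 libraries were analysed, 1 per antibody and treatment, and the 4 inputs were not used here. Uniquely mapped reads (mm10, Bowtie2) were freed of duplicates in Samtools by the authors, who ran MACS2 on each library against input. They state a p-value cutoff of 0.001, whereas the lowest values given below place the cutoff of the histone lists on q. The deposited lists hold, per peak, the fold enrichment (a ratio of ChIP to background pileup), −log10 p and −log10 q. The score column and the summit offset of the narrow lists were also deposited by the authors, and the score was not used. The lists hold only peaks above a cutoff, with the lowest −log10 value at 3.00 to 3.03 (−log10 p for LSD1 and Pol II, −log10 q for histone marks). A missing peak therefore means that no peak passed, not that no signal was present. Read depth is not recorded in the lists, and peak numbers depend on it. To compare signals the authors also drew equal read numbers at random from the libraries. Whether the peaks were called on those reads is not stated.

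Groups came from the labels. Promoters (1 kb on either side of 31645 TSSs of 26180 curated RefSeq genes, GRCm38.p6) and loci (gene body and 60 kb on each side) were joined with the lists in Python 3.11.15 at an overlap of at least 1 bp. Percentiles rank a peak's fold within its own list. Wilson 95% intervals cover counting error only. The overlap step was tested on simulated peaks against bedtools 2.31.1. With 1 library per group no test across genes was run, and genome-wide shares of peaks unmatched in the other treatment stand beside the counts. The members, gene lists, motifs and alternatives (500 bp and 2 kb promoters, 30 kb and 100 kb windows, lists of equal length, a −log10 threshold of 5, other overlaps, rank by −log10 p) were chosen with earlier results of these data known. The −log10 threshold of 5 applied to p for LSD1 and Pol II and to q for histone marks. All 7 members and all their promoter peaks are named. Distal peaks are named by rank or because 1 treatment lacked them. The genes listed beside them were fixed as lists. A marker gene that was part of these lists is not reported here.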

Additional observations from a re-analysis of the deposited data

How the results depend on the processing

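No paired analysis was possible because each antibody and treatment held 1 library, and no replicate could be left out. Of 177 values recomputed under an alternative, 144 stayed within their counting interval or, for counts, within 1.5 times. Percentiles have no counting interval, and small changes in them also counted as moved. By that rule 20 of the 21 moved when ranked by −log10 p in place of fold, so this count is not comparable with the others. Ifng LSD1 in GSK cells, for example, stood at 19.1 by fold and at 19.9 by −log10 p. Tnf H3K4me1 in Veh cells stood at 9.43 and at 65.5. All 24 locus ratios counted as unmoved because their intervals are wide. The H3K27ac ratio ran from 0.125 (threshold of 5) to 1 (equal length) and the H3K4me2 ratio from 0.167 (30 kb) to 0.667 (equal length). With a −log10 threshold of 5, the members with a promoter peak fell to 1 for GSK LSD1 (the Ifng peak did not pass) and to 1 for GSK H3K4me1, the locus counts became 5 for Veh H3K4me2, 2 for GSK H3K4me2, 1 for GSK H3K27ac and 6 for GSK Pol II, and the shares of Veh peaks met by a GSK peak became 75% for H3K4me1 and 12.5% for H3K27ac. With lists of equal length, Veh H3K27ac had 0 members with a promoter peak and 4 locus peaks, Veh H3K4me2 had 6 locus peaks, and the H3K4me2 share became 66.7%. A 2 kb promoter gave 2 members with Veh H3K4me2, Tnf and Lta, from the same region between them. Ranked by −log10 p, the Veh and GSK percentiles were 76.1 and 19.9 (Ifng LSD1), 66.7 and 27.5 (Ifng H3K4me1), 6.81 and 8.86 (Ifng H3K4me3), 65.5 and 7.44 (Tnf H3K4me1), 60.5 and 62.9 (Tnf H3K4me3), 94.6 and 96.6 (Lta LSD1), 97.1 and 95.5 (Csf2 H3K4me1) and 23.3 and 17.4 (Csf2 H3K4me3), and in Veh cells 45.9 (Tnf H3K27ac), 99.6 (Tnf Pol II), 22.6 (Lta H3K4me3) and 61.6 (Csf2 LSD1). Treatment order by rank was the same under both measures at each of the promoters with a peak in both treatments. The causes of these moves were not tested. With 1 library per group, the difference between treatments and between libraries cannot be told apart.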
